A study of Mus musculus with 14 samples.

Results

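Among the 14 arrays of this series, 8 held duodenum without tumor, and these fell into 2 classes by S100g, the gene for calbindin-D9k, a calcium carrier of the absorptive cell. The 8 arrays were divided at a log2 signal of 11 for S100g, which left 4 arrays above the line (S100g-high) and 4 below it (S100g-low). The classes were therefore chosen from measured values and are not groups of the study. Every difference between them below is a description without a test, because the other genes were read on the same arrays as S100g. The S100g-high class held wildtype replicates 1 and 3 and adjacent replicates 1 and 2, and the S100g-low class held wildtype replicate 2 and adjacent replicates 3, 4 and 5. Wildtype tissue was normal duodenal epithelium from 3 mice. Adjacent tissue was normal duodenal epithelium taken beside a tumor in 5 mice of genotype Lrig1-CreERT2/CreERT2 (Lrig1-/-), in which the recombinase sits in both copies of Lrig1. The 6 tumors came from 6 mice of that genotype, 5 of which also gave the adjacent tissue. Wildtype and mutant mice were age-matched, of background 129S7/SvEv and C57/BL6, and the labels place all samples in the proximal duodenum. Age and sex are not given in the labels.

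The duodenum changes along its length. The part nearest the stomach holds the mucous Brunner glands in its submucosa, receives bile and pancreatic juice, and is the main site of active calcium and non-heme iron uptake, whereas hydrolysis and transport of other nutrients spread further down the gut. The pancreas lies against the duodenal wall, and pancreatic tissue is not part of the gut epithelium.

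Total RNA was read on Affymetrix Mouse Gene 1.0 ST arrays, which gave log2 signal for 19938 named genes. Array medians over all 35556 transcript clusters, named or not, were 7.14 to 7.29 in the S100g-high class and 7.15 to 7.23 in the S100g-low class. The labelled tissue was present in both classes: the epithelial cadherin Cdh1 lay between 12.23 and 12.59 on the 8 arrays and the brush border gene Vil1 between 12.59 and 13.40. Vil1 was not equal between the classes, since every S100g-high array lay below every S100g-low array, with a gap of 0.29. Wildtype replicate 1 stood apart within its class. It lay at least 1 log2 unit above the other 3 S100g-high arrays in 295 genes and below them in 66. The same counts were 127 and 8 for adjacent replicate 2, 22 and 29 for wildtype replicate 3, and 12 and 10 for adjacent replicate 1. Among S100g-low arrays, no array passed 12 genes in either direction. Results that wildtype replicate 1 decides are therefore given with and without it. Among the 8 non-tumor arrays Lrig1 followed the genotype and not the class. It read 9.54, 9.34 and 8.22 on wildtype replicates 1, 2 and 3, and 6.95 to 7.40 in the 5 adjacent arrays. The tumors, of the same genotype as the adjacent tissue, read 7.65 to 8.54, a range that includes wildtype replicate 3. The classes also ran with the first letter of the mouse ID, whose meaning is not given in the labels. All 3 non-tumor arrays of letter F were S100g-high, whereas letter B gave 1 S100g-high array, wildtype replicate 3, and all 4 S100g-low arrays.

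S100g itself read 13.51 on wildtype replicate 1, 13.44 on wildtype replicate 3, 13.74 on adjacent replicate 1 and 13.45 on adjacent replicate 2. In the S100g-low arrays it read 7.86 on wildtype replicate 2, 8.75 on adjacent replicate 3, 8.06 on adjacent replicate 4 and 9.25 on adjacent replicate 5. No array lay near the dividing line: the nearest values were 13.44 above it and 9.25 below it. The 6 tumors read 12.73 to 13.36, just under the S100g-high arrays.

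A gene was counted as higher or lower in the S100g-high class when the 4 arrays of one class did not overlap the 4 of the other and the class means differed by at least 1 log2 unit. By this count 146 genes were higher, which is 0.732% of all genes, and 127 were lower, which is 0.637%. These shares describe the selected contrast and nothing more is read from them. Without wildtype replicate 1 the counts were 134 and 108, of which 126 and 95 were genes of the first count. Without the minimum size, 534 genes (2.68%) were higher and 1517 (7.61%) lower. This last split depended on scaling, since the higher genes made up 26.0% of those not overlapping as deposited and 37.6% after quantile normalization. Of the 146 higher genes, 35 belonged to the lists of pancreatic enzymes and other acinar genes, and 111 did not. The 111 were set apart by these lists alone. They still held the insulin gene Ins2 and the amylase Amy1, and are therefore not a set of gut genes only. Of the 41 genes higher by at least 3 log2 units, 25 were from these lists, and 6 genes were lower by as much.

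**Figure D1:**
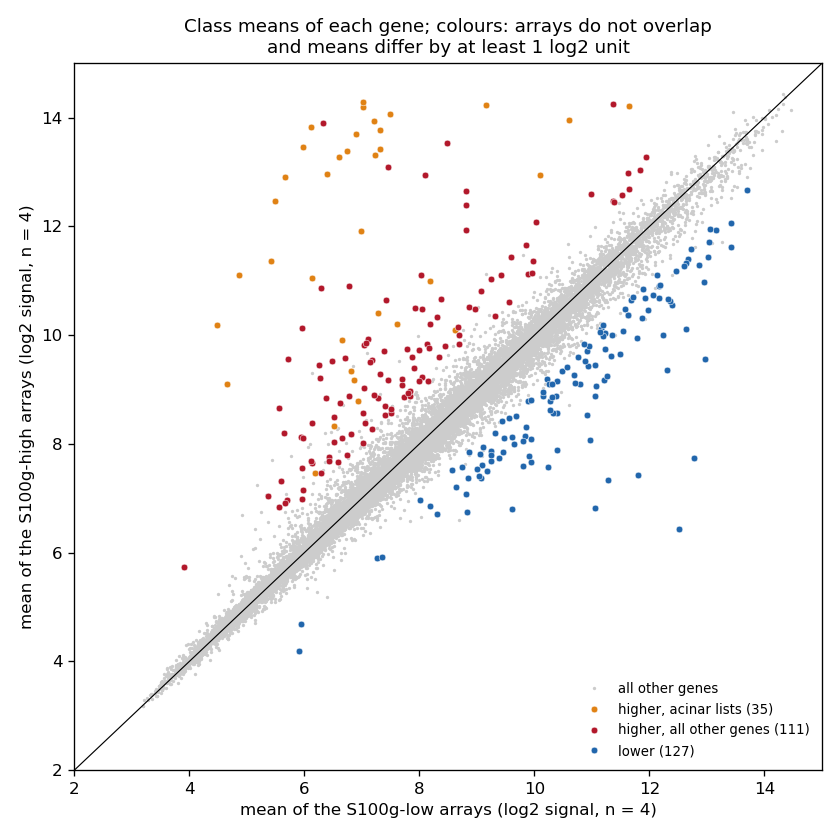
Mean log2 signal of each of 19938 genes in the 4 S100g-low arrays (horizontal) and the 4 S100g-high arrays (vertical), with the line of equality. Coloured points are the genes that did not overlap and differed by at least 1 log2 unit: 35 of the acinar lists (orange), 111 others higher (red) and 127 lower (blue), with most of the orange points at the top left, near 7 in the S100g-low class and near 14 in the S100g-high class.

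Digestive enzymes of the exocrine pancreas gave the most extreme differences. Of the 21 enzyme genes measured, 20 were higher in the S100g-high class, with a median difference of 6.47, against -0.01 over all genes. Ctrl, a chymotrypsin-like protease, read 14.30, 13.82, 13.74 and 14.39 on wildtype replicates 1 and 3 and adjacent replicates 1 and 2, and between 7.37 and 7.59 in the S100g-low arrays. All 4 S100g-high arrays were thus near the top of the measured scale and the other 4 within 0.23 log2 units of each other. Cel, the bile salt-activated lipase, had the largest class difference of all named genes, at 13.83 ± 0.41 (SD, n = 4) against 6.12 ± 0.09, a difference of 7.71. Carboxypeptidases Cpb1 and Cpa1, which trim peptides from the carboxyl end, differed by 7.48 and 7.18. The chymotrypsinogen Ctrb1 differed by 7.26, the elastase Cela3b by 6.72 and the phospholipase Pla2g1b by 6.64. Trypsinogens Try10 (7.25) and Try5 (6.80) were also higher, but these near-identical paralogs share probes, so their separate values are uncertain. The exception was Dnase1, the secreted endonuclease, which was lower by -2.38, at 7.03 to 9.53 in S100g-high arrays and 10.76 to 11.05 in the others. In a bulk sample fewer cells of a type and less RNA per cell cannot be told apart.

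Other acinar genes followed. Of 19 genes, 15 were higher and 0 lower, with a median difference of 2.59. They included the secretory granule protein Gp2 (6.57), the lectin Reg2 (6.99), the disulfide isomerase Pdia2 (5.95) and the serpin Serpini2 (5.71). Ptf1a, the transcription factor that specifies acinar cells, was nearer to the threshold, at 7.65, 6.86, 6.43 and 8.92 on wildtype replicates 1 and 3 and adjacent replicates 1 and 2 against 6.06 to 6.38. Adjacent replicate 1 thus exceeded the highest S100g-low array by little. The 4 S100g-high arrays were uneven for the genes of moderate signal. Cckar, the cholecystokinin receptor of the acinar cell, read 12.42 on adjacent replicate 2 and 10.22 on wildtype replicate 1, but 8.64 on wildtype replicate 3 and 8.40 on adjacent replicate 1. Ctrc, a chymotrypsin, read 13.61, 13.21 and 12.02 on adjacent replicate 2, wildtype replicate 1 and adjacent replicate 1, and 8.81 on wildtype replicate 3. Over the 35 higher genes of both lists, adjacent replicate 1 was the S100g-high array nearest the other class in 27 and wildtype replicate 3 in 7.

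To show what the acinar genes share in sequence, the 250 bases before the start of 3 of them are set beside those of 3 genes that mark the split in the gut epithelium, from RefSeq on GRCm38.p6. Capitals mark CACCTG on either strand, an E-box of the kind bound by basic helix-loop-helix factors, the family to which PTF1A belongs.
Ctrl, chr8:105933863-105934112, minus strand: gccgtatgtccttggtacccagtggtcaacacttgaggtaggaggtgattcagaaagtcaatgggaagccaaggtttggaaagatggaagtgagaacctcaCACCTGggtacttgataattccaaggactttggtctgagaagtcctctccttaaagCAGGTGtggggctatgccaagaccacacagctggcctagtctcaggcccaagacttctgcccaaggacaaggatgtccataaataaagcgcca
Cel, chr2:28563404-28563653, minus strand: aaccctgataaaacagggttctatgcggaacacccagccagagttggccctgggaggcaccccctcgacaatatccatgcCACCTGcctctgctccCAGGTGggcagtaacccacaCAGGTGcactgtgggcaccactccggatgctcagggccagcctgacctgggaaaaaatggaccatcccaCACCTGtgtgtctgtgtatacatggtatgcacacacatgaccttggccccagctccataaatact
Cela3b, chr4:137430521-137430770, minus strand: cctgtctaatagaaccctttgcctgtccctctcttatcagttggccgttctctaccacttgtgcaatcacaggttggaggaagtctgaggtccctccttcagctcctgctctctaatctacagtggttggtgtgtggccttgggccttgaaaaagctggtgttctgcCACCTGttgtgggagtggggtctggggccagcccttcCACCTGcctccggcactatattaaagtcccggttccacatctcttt
S100g, chrX:162964600-162964849, minus strand: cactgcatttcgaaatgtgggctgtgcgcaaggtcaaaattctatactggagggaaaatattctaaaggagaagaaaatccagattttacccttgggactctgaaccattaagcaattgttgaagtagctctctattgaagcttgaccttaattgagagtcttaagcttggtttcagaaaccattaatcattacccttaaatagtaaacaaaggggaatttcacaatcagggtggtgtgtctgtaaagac
Cybrd1, chr2:71117804-71118053, plus strand: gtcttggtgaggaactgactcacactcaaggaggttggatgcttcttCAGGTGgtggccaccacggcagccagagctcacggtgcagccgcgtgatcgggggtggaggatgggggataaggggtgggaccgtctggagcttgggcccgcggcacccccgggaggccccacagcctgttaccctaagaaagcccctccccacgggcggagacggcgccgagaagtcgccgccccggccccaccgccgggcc
Enpp7, chr11:118987931-118988180, plus strand: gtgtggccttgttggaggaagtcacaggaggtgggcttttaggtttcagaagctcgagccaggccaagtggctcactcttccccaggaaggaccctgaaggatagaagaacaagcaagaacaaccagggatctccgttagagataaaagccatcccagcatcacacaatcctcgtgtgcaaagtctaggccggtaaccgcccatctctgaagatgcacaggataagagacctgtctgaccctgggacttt
Cel held 4 matches, Ctrl and Cela3b 2 each, Cybrd1 1, and S100g and Enpp7 0. A RefSeq window was at hand for 29 of the 35 higher acinar genes, 75 of the 111 other higher genes, 98 of the 127 lower genes and 15614 of all genes. CACCTG stood in 20 of 29 acinar windows (69.0%), 24 of 75 (32.0%), 20 of 98 (20.4%) and 2587 of 15614 (16.6%). Of the other 6-letter words searched on both strands, AGATAA, the core read by GATA factors, stood in 31.0%, 12%, 9.18% and 8.75% of these sets, in the same order. TATAAA, the TATA box, stood in 24.1%, 17.3%, 12.2% and 11.2%. TTTCCC, a word in the other part of the PTF1 site, stood in 24.1%, 24.0%, 18.4% and 22.6%. TGACAG, the core for MEIS factors, stood in 0%, 18.7%, 13.3% and 14.96%, and TAATTA, a homeobox core, in 6.90%, 2.67%, 3.06% and 4.12%. Each word was counted whether or not it overlapped another, and neighbouring paralogs such as the elastases share ancestry in these windows. A match is a run of letters, not a shown binding site.

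Endocrine and ductal pancreas genes were less uniform. In the islet list 2 of 15 genes were higher, Ins2 and Pdx1, with a list median of 0.24. The insulin gene Ins2 read 10.36 on adjacent replicate 2, 8.87 on wildtype replicate 3, 7.66 on adjacent replicate 1 and 6.62 on wildtype replicate 1, against 5.94 to 6.28 in the S100g-low arrays. Iapp, the amyloid polypeptide secreted with insulin, read 10.22 on adjacent replicate 2 and 9.29 on wildtype replicate 3, but 6.35 on adjacent replicate 1 and 5.89 on wildtype replicate 1, so that the classes overlapped. Wildtype replicate 1, high in acinar genes, was thus the lowest S100g-high array for both hormones. It lay below the S100g-low arrays (5.98 to 6.14) for Iapp and above them for Ins2. In the list of pancreatic and bile duct genes 2 of 10 were higher, the membrane mucin Muc1 (4.17) and the carbonic anhydrase Car2 (2.05). Muc1 read 12.12 on adjacent replicate 2, 11.57 on wildtype replicate 1, 8.72 on wildtype replicate 3 and 8.11 on adjacent replicate 1, against 5.81 to 6.07. Tumors read 10.12 to 12.86 for Muc1, whereas they read 6.03 to 6.44 for Ins2.

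Calcium uptake by the enterocyte needs an entry channel, a carrier and a basolateral pump, and 1 gene of each step was higher. Trpv6, the apical calcium channel, read 10.76 on wildtype replicate 1, 10.70 on adjacent replicate 1, 8.96 on adjacent replicate 2 and 7.35 on wildtype replicate 3, against 5.96 to 6.62 in the S100g-low arrays. The channel therefore spread over 3.41 log2 units within the S100g-high class, in which S100g spread over 0.30. Atp2b1, the plasma membrane calcium pump, averaged 12.98 ± 0.33 against 11.63 ± 0.16 (SD, n = 4), a difference of 1.35. The other 12 of 15 genes of the list were neither higher nor lower. Among them were the vitamin D receptor Vdr, with a difference of 0.20, and the paracellular claudin Cldn2, with 0.72. The list median was 0.01.

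Iron genes of 3 steps were higher, but most of the list was not. Cybrd1, the ferric reductase of the brush border, read 13.41, 12.87, 13.54 and 11.996 on wildtype replicates 1 and 3 and adjacent replicates 1 and 2, and 7.70 to 8.62 in the S100g-low arrays. Slc40a1, the exporter ferroportin, averaged 12.65 ± 0.27 against 8.81 ± 0.65 (SD, n = 4). Slc11a2, the apical iron transporter DMT1, differed by 1.39, with its S100g-high arrays between 10.53 and 12.38 and the others between 9.88 and 10.10. These 3 genes cover reduction, entry and exit. Heph, the ferroxidase that works with ferroportin, did not separate the classes and differed by -0.11. Of 20 genes of the list 4 were higher, with Hamp2 at 1.05, and 1 lower, the heme exporter Flvcr1 at -1.52. The list median was 0.21. For Flvcr1 the highest S100g-high array, wildtype replicate 3 at 11.06, lay 0.64 below the lowest of the others.

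**Figure D2:**
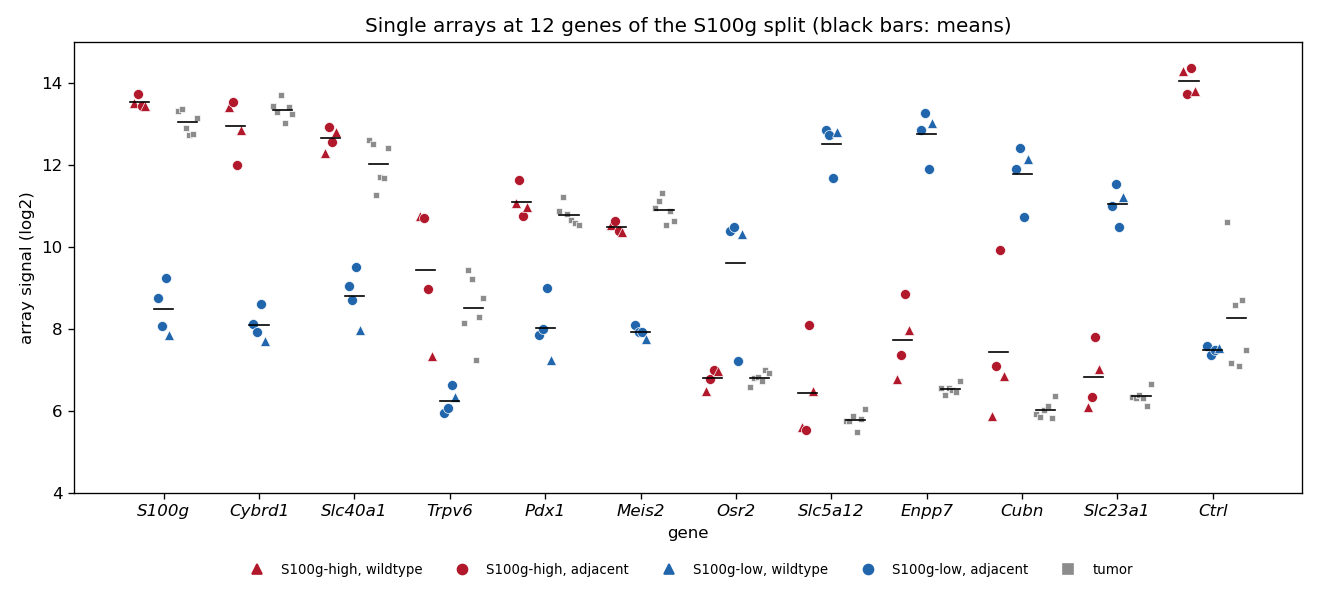
Log2 array signal of 12 genes on each array: S100g-high arrays in red, S100g-low in blue, tumors in grey, triangles for wildtype and circles for adjacent tissue, black bars for means; signals of different genes are not comparable. The classes separate at every gene shown, Osr2 is low on adjacent replicate 5 (7.21) and Cubn is high on adjacent replicate 2 (9.93).

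Transcription factors that pattern the gut differed in few members. Of 24 in the list 2 were higher and 1 lower, with a median difference of 0.06. Pdx1, which shapes the duodenum next to the stomach and the pancreas, averaged 11.11 ± 0.38 against 8.03 ± 0.73 (SD, n = 4). In the S100g-low class it read 7.24 on wildtype replicate 2, 7.86 on adjacent replicate 3, 8.001 on adjacent replicate 4 and 9.003 on adjacent replicate 5, the last again the nearest to the other class. The homeobox gene Meis2 read 10.37 to 10.65 in S100g-high arrays and 7.76 to 8.08 in the others. Osr2, a zinc finger factor, went the other way: it read 6.47 to 6.99 in S100g-high arrays and 10.31, 10.40 and 10.49 on wildtype replicate 2 and adjacent replicates 3 and 4. Adjacent replicate 5 read 7.21, only 0.22 above the highest S100g-high array. Nkx6-3 differed by 1.89 without separating the classes, since adjacent replicate 2 read 7.36 and the other 3 S100g-high arrays 9.98 to 10.41. None of the 32 Hox genes was higher or lower, and their median difference was -0.02. Gata4, which separates jejunal from ileal identity, differed by 0.15.

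Sodium-coupled carriers led the genes that were lower in the S100g-high class. Slc5a12, a lactate and nicotinate carrier, read 5.61, 6.47, 5.53 and 8.10 on wildtype replicates 1 and 3 and adjacent replicates 1 and 2, against 12.81, 12.85, 12.74 and 11.68 on wildtype replicate 2 and adjacent replicates 3, 4 and 5. Its difference of -6.09 was the largest in this direction. Slc23a1, the vitamin C carrier, averaged 6.81 ± 0.76 against 11.06 ± 0.44 (SD, n = 4), and Slc13a2, the citrate carrier, 9.56 ± 2.49 against 12.97 ± 0.17. The large spread of Slc13a2 came from 6.54 on wildtype replicate 1 and 8.52 on adjacent replicate 1 beside 11.37 and 11.82 in the other 2 S100g-high arrays. Without wildtype replicate 1 its difference was -2.40 in place of -3.41. Slc5a4b and Slc5a4a, relatives of the glucose carrier SGLT1, differed by -3.93 and -2.52, and as close paralogs may share probes.

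Cubn, the cobalamin and protein uptake receptor, read 5.86, 6.85, 7.09 and 9.93 on wildtype replicates 1 and 3 and adjacent replicates 1 and 2. In the S100g-low arrays it read 12.14 on wildtype replicate 2, 11.90 on adjacent replicate 3, 12.41 on adjacent replicate 4 and 10.72 on adjacent replicate 5. Adjacent replicates 2 and 5 thus lay within 0.80 log2 units of each other across the class line. Amn, the anchor with which cubilin forms its receptor, differed by -0.82. In the list of water-soluble vitamin uptake 3 of 12 genes were lower, Cubn, Slc23a1 and Slc13a2, and the median of the list was 0.04.

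Enpp7, the brush border sphingomyelinase, read 6.77, 7.98, 7.36 and 8.86 on wildtype replicates 1 and 3 and adjacent replicates 1 and 2, and 13.04, 12.86, 13.28 and 11.90 on wildtype replicate 2 and adjacent replicates 3, 4 and 5. Asah2, the ceramidase that acts on its product, was lower by -1.21 and Cyp27a1, a sterol hydroxylase, by -1.34. With Cubn these made 4 of 18 genes lower in the list of bile acid handling and ileal genes, of which 2 were counted without wildtype replicate 1. The ileal bile acid transporter Slc10a2 (-0.16) and its cytosolic partner Fabp6 (0.00) read at most 6.32 on all 8 arrays.

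Among brush border hydrolases and other carriers a minority of genes were lower. In the list of disaccharidases and sugar uptake 4 of 17 genes were lower and 0 higher, with a median of -0.99. Lactase, Lct, averaged 11.61 ± 1.33 against 13.43 ± 0.10 (SD, n = 4), and its lowest value was 9.66 on wildtype replicate 1. Sucrase-isomaltase, Sis, differed by -0.69 and the glucose carrier Slc5a1 by -0.48, below the minimum size. Of 15 brush border peptidases 5 were lower, led by the dipeptidase-like Naaladl1 (-2.52) and the metalloprotease meprin, Mep1a (-2.17), with a list median of -0.63. Of 19 amino acid and peptide transporters 5 were lower, among them Slc7a15 (-1.84) and Slc36a1 (-1.66), with a median of -0.61. Without wildtype replicate 1 the peptidase count was 3 lower and 1 higher, and that of the transporters 3 lower.

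Of 23 genes of fat handling 19 lay lower without overlap at any size, but 3 passed 1 log2 unit, the cholesterol exporter Abca1 (-2.28), the fatty acid receptor Cd36 (-1.14) and the fatty acid-binding protein Fabp2 (-1.04). The list median was -0.54. Without wildtype replicate 1 only Abca1 of these 3 passed that size. Scarb1, the lipoprotein receptor SR-BI, was the exception at 11.43 ± 0.15 against 9.60 ± 0.54 (SD, n = 4). Of 30 cytochromes and conjugating enzymes 4 were lower, among them Cyp2c38 (-1.71) and Cyp2u1 (-1.64), and 1 was higher, the glutathione transferase Gsta4 (1.61). Among lower genes in no other list, Susd2, a membrane protein, differed by -2.96, the serine protease Prss30 by -2.89 and Bbox1, the last enzyme of carnitine synthesis, by -2.66.

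**Figure D3:**
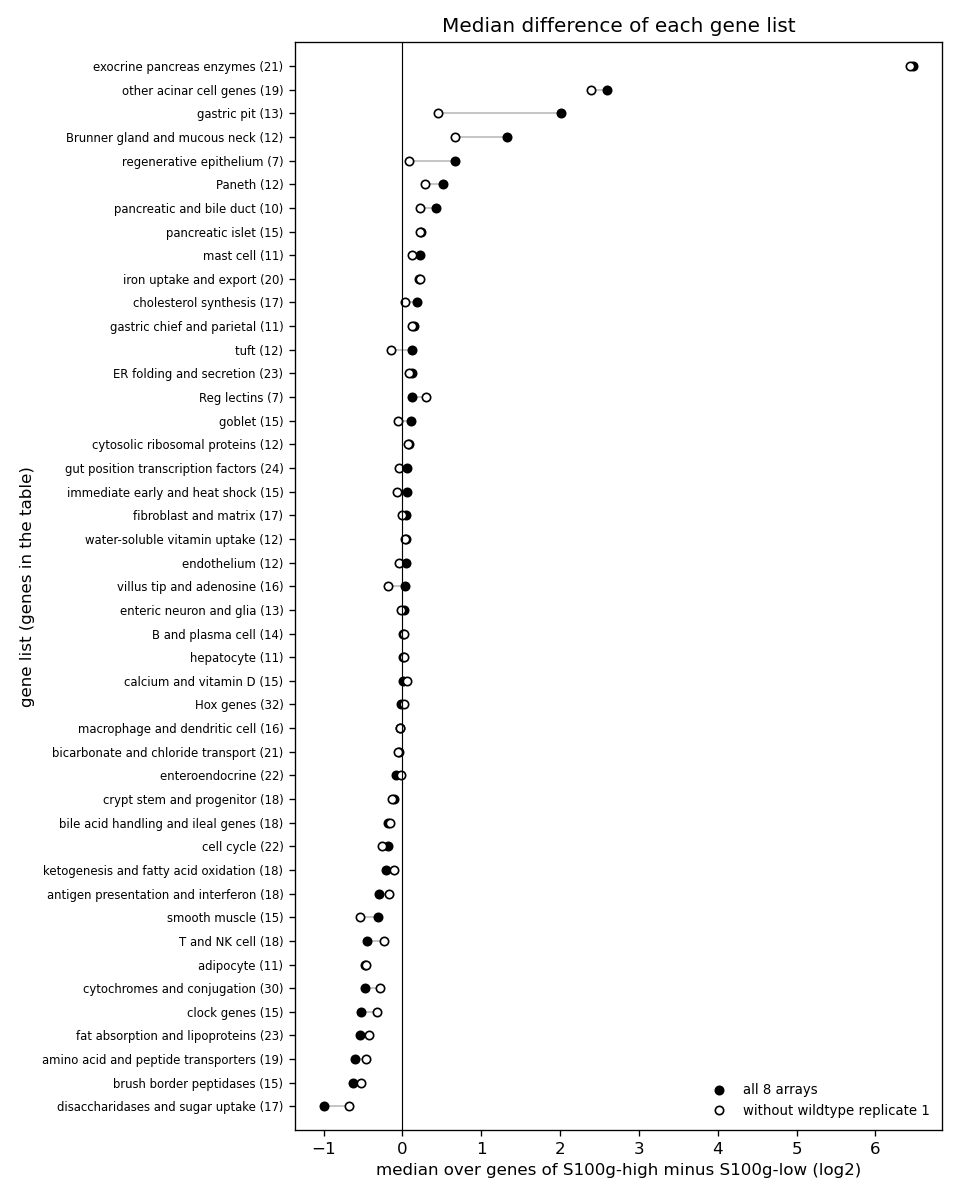
Median over the genes of each of 45 lists of the S100g-high minus S100g-low difference in log2 signal, with all 8 arrays (filled) and without wildtype replicate 1 (open); the number of genes in the table stands in parentheses. The acinar lists lie farthest to the right (6.47 and 2.59), sugar uptake farthest to the left (-0.99), and the gastric pit median moves from 2.02 to 0.45 without that array.

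Mucous genes of Brunner glands and stomach differed, but much of this rested on wildtype replicate 1. Tff2, the trefoil peptide of gland mucus, was the exception: it read 14.21 on wildtype replicate 1, 11.98 on wildtype replicate 3, 12.44 on adjacent replicate 1 and 13.74 on adjacent replicate 2, against 7.19 to 7.76 in the S100g-low arrays. Without wildtype replicate 1 its difference was 5.27 in place of 5.64. Muc6, the mucin of these glands, read 13.53 on wildtype replicate 1 and 9.68, 8.40 and 7.07 on adjacent replicate 1, wildtype replicate 3 and adjacent replicate 2, so that the last fell inside the S100g-low range of 6.55 to 7.76. Adjacent replicate 2 therefore carried high Tff2 without Muc6. Among the 12 genes of Brunner glands and mucous neck cells 3 were higher, and the list median was 1.33. Without wildtype replicate 1 the count was 2 and the median 0.66. The 3 include Ptf1a, which is also counted above with the acinar genes.

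In the gastric pit list 5 of 13 genes were higher, with a median of 2.02. Without wildtype replicate 1 the count was 4 higher and 1 lower, with a median of 0.45. Gkn2, a gastrokine of the stomach surface, read 14.20 on wildtype replicate 1, 8.95 on adjacent replicate 1, 7.32 on wildtype replicate 3 and 6.74 on adjacent replicate 2, against 5.16 to 6.94. The annexin Anxa10 read 13.37 on wildtype replicate 1, 10.07 on adjacent replicate 1, 7.68 on wildtype replicate 3 and 7.09 on adjacent replicate 2, against 5.37 to 6.07. Cathepsin E, Ctse, read 13.94, 12.11, 13.12 and 10.38 on wildtype replicates 1 and 3 and adjacent replicates 1 and 2, against 8.50 to 9.16. Wildtype replicate 1 lay inside the tumor range for Gkn2 (14.01 to 14.35) and Anxa10 (13.18 to 13.68) and just under it for Ctse (13.96 to 14.12). Of the 11 chief and parietal cell genes 2 were higher, and the list median was 0.15. The 2 were Bhlha15, also counted with the acinar genes, and gastrin, Gast, also in the enteroendocrine list. Without wildtype replicate 1 the count was 1 and the median 0.12.

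Paneth and hormone genes showed single members. In the Paneth list 2 of 12 were higher, the stress protein Nupr1 (3.13) and Copz2 (1.96). Both peaked on adjacent replicate 2 and wildtype replicate 1, the arrays with the most Cckar, and their part in the pancreas signal was not tested. Of 7 Reg lectins 2 were higher, Reg2 and Reg3d, the latter at 10.86 ± 1.78 against 6.30 ± 0.29 (SD, n = 4). Of 22 enteroendocrine genes the hormone Pyy was higher, at 9.28 ± 0.35 against 7.31 ± 0.12, as was gastrin, Gast, which reached 10.22 on wildtype replicate 1 and 7.11 to 7.38 in the other 3. The lowest of these lay only 0.02 above the highest S100g-low array. Within adjacent tissue alone the difference of Gast was 0.22, so its size rested on wildtype replicate 1. Neurotensin, Nts, was lower by -1.24, at 4.62 to 4.80 against 5.68 to 6.41. In the list of regenerative epithelium 2 of 7 genes were higher, among them Clu by 3.23, and the list median was 0.66. Without wildtype replicate 1 the count was 1 higher and 1 lower, and the median 0.08. Il33 went the other way, by -1.80 within adjacent and -1.20 within wildtype tissue.

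Of 15 clock genes 4 were lower, with a median of -0.52, and without wildtype replicate 1 the count was 3 and the median -0.32. Dbp, a clock-driven transcription factor, read 8.39 on wildtype replicate 1 and 8.31 on adjacent replicate 1, but 11.01 on wildtype replicate 3 and 10.79 on adjacent replicate 2, against 11.25 to 11.44 in the S100g-low arrays. Hlf read 7.07, 6.97, 7.72 and 7.76 in the same order, against 8.47 to 9.33. The Dbp difference thus lay mainly in 2 of the 4 S100g-high arrays, whereas for Hlf all 4 lay at least 0.71 below the S100g-low arrays. The time of day of sampling is not given in the labels.

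No gene was higher or lower in 19 of the 45 lists. These included goblet (15 genes, median 0.11), crypt stem and progenitor (18, -0.11), cell cycle (22, -0.19), B and plasma cell (14, 0.01), T and NK cell (18, -0.45), endothelium (12, 0.04), fibroblast and matrix (17, 0.04), and enteric neuron and glia (13, 0.02). Smooth muscle had 1 lower gene of 15, Pgm5 (-1.08), and the hepatocyte list 1 higher of 11, Ttr (1.504), which pancreatic islets also express. Without wildtype replicate 1 the T and NK cell median was -0.23 in place of -0.45, that of cytochromes and conjugation -0.28 in place of -0.48, that of pancreatic and bile duct genes 0.22 in place of 0.43, and that of the Paneth list 0.29 in place of 0.51. The goblet median turned to -0.05, and that of villus tip and adenosine genes to -0.18 in place of 0.04. Those of the calcium, position factor, Hox, B and plasma cell, endothelium, fibroblast and neuron lists, all near 0 with 8 arrays, lay between -0.04 and 0.05 without that array.

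Outside every list lay 82 of the higher and 89 of the lower genes, and apart from Amy1 those named here were picked after their values were seen. The RIKEN cDNA gene 2210010C04Rik differed by 7.59, nearly as much as Cel. Amy1, an amylase closely related to that of the pancreas, differed by 3.10, at 7.58 to 10.40 against 4.98 to 6.16. Slc30a10, a manganese exporter, averaged 11.04 ± 0.43 against 9.24 ± 0.48 (SD, n = 4). The magnesium carrier Slc41a1 differed by 1.59, the metallothioneins Mt2 and Mt1 by 1.35 and 1.099, and Ncoa4, the receptor that delivers ferritin for breakdown, by 1.20. Mt2 was also uneven among S100g-low arrays, from 10.54 on adjacent replicate 3 to 12.78 on adjacent replicate 5. Lower genes in no list included the drug efflux pump Abcb1a (-2.23), the monocarboxylate carrier Slc5a8 (-2.21), the phosphate carrier Slc34a2 (-2.08), the inositol carrier Slc5a11 (-2.02) and the water channel Aqp1 (-2.02). Among sodium-coupled SLC5 carriers, Slc5a12, Slc5a4b, Slc5a4a, Slc5a8 and Slc5a11 were thus lower, whereas Slc5a1 (-0.48) and Slc5a6 (-0.22) stayed under the minimum size.

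Each class was graded within itself. Over the 127 lower genes the S100g-low array nearest the other class was adjacent replicate 5 in 89, and the S100g-high array nearest the other class was adjacent replicate 2 in 75. Over the 111 higher genes outside the acinar lists the nearest S100g-low array was adjacent replicate 5 in 53 and the nearest S100g-high array wildtype replicate 3 in 54. Akp3, an alkaline phosphatase of the brush border, showed this in single values: it read 13.35 on adjacent replicate 5 and 10.36 to 11.02 in the other 3 S100g-low arrays, against 14.15 to 14.34 in the S100g-high arrays. The acinar genes did not share this order, as adjacent replicate 5 and wildtype replicate 2 were each nearest in 13 of 35. Ctrl read 7.50 on adjacent replicate 5, inside the 0.23 units spanned by its class.

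**Figure D4:**
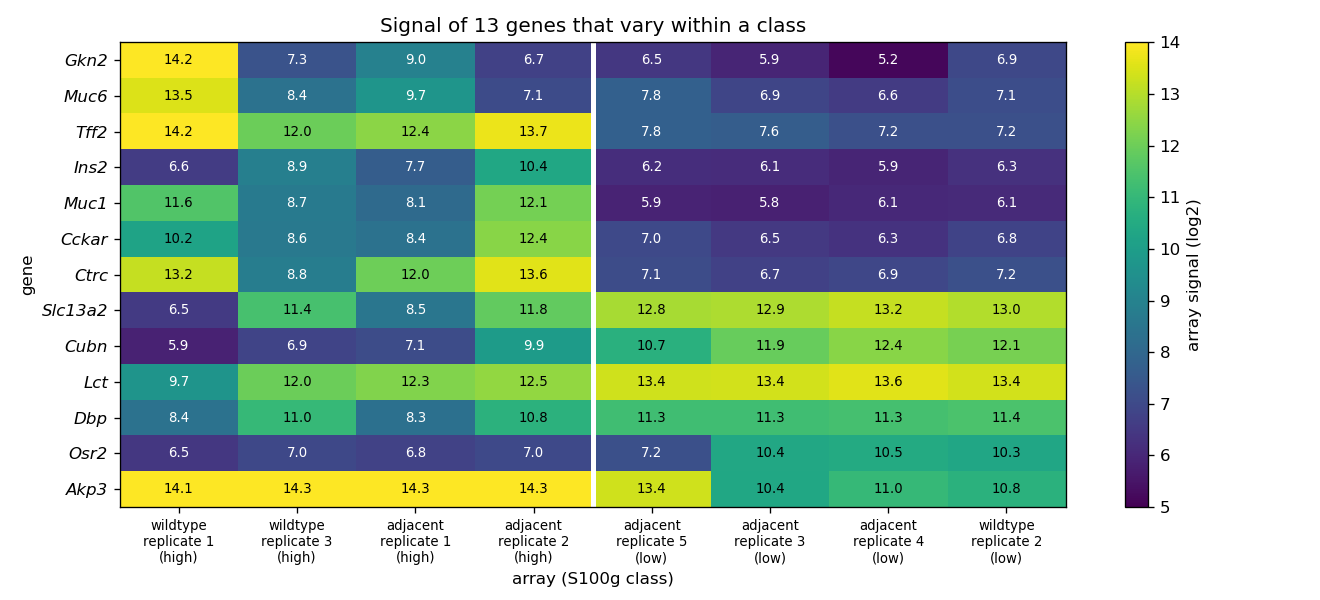
Log2 signal of 13 genes (rows) on the 8 non-tumor arrays (columns), S100g-high to the left of the white line and S100g-low to the right; signals of different genes are not comparable. Gkn2 and Muc6 are brightest on wildtype replicate 1, Ins2 on adjacent replicate 2, Cubn is higher on adjacent replicate 2 within its class, and Osr2 and Akp3 of adjacent replicate 5 resemble the S100g-high arrays.

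The split was read again within the labels that run with it. In mice of letter B it set wildtype replicate 3 against the 4 S100g-low arrays. There 32 of the 35 higher acinar genes, 50 of the 111 other higher genes and 90 of the 127 lower genes differed by at least 1 log2 unit in the same direction. These genes were chosen on the same arrays for both direction and size, so the counts describe the arrays and say nothing about the letter or the genotype. Within letter B Cybrd1 differed by 4.78, Pdx1 by 2.94, Enpp7 by -4.79 and Slc5a12 by -6.05. Within wildtype tissue, with 2 arrays against 1, the counts were 35, 101 and 116. Within adjacent tissue, with 2 against 3, they were 35, 93 and 92. Letter F had no S100g-low array, so letter and class cannot be told apart there.

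The 6 tumors did not take part in the split and lay on different sides of it for different genes. Over the 127 lower genes the tumor mean was closer to the S100g-high mean in 123, and for 112 this held in each of the 6 tumors. Values below both classes count here too, and no such count was made over all genes. Tumor means of the disaccharidase and sugar uptake list were 8.72 to 9.25, below the 9.92 to 11.18 of S100g-high arrays. Those of the brush border peptidases were 8.79 to 9.30, below 10.03 to 10.94. Slc5a12 read 5.48 to 6.04 in tumors, Enpp7 6.40 to 6.73 and Osr2 6.58 to 6.99, all near or below the S100g-high arrays. Over the 111 higher genes outside the acinar lists the tumor mean was on the S100g-high side in 74, including Cybrd1 at 13.03 to 13.70, Pdx1 at 10.54 to 11.22 and Meis2 at 10.54 to 11.33. Over the 35 higher acinar genes it was on the S100g-low side in 34, and for 28 this held in each of the 6 tumors. Tumor means of the pancreatic enzyme list were 6.93 to 8.97, the highest on tumor replicate 1. S100g-low arrays read 7.32 to 7.50 and S100g-high arrays 12.20 to 13.57 for this list, so some tumors lay above the S100g-low range. Ctrl read 7.09 to 10.62 in tumors.

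The comparison that the study designed, adjacent mutant tissue against wildtype, cut across the classes, since both groups held both. S100g averaged 10.65 ± 2.72 (SD, n = 5) in adjacent and 11.61 ± 3.24 (n = 3) in wildtype arrays, a difference of -0.95 (exact permutation test, two-sided, p = 0.964). Across all genes limma called 0 genes at an adjusted p of 0.05, which is 0% of 19938, with 559 genes at an unadjusted p below 0.05. The gene nearest the threshold was Lrig1, at -1.84 ± 0.25 (SE) with an adjusted p of 0.0511 in limma. It was called alone after quantile normalization (adjusted p = 0.0111), after centring (0.0278), with dim genes left out (0.0354) and without wildtype replicate 3 (0.000283), and the other alternatives with equal array weights gave 0.0512 to 0.999. With array weights limma called 1691 genes. The median SE was 1.67 log2 units for the 35 higher acinar genes, 0.61 for the 111 other higher genes and 0.48 for the 127 lower genes, against 0.14 for all genes. On the 8 non-tumor arrays alone these were 2.004, 0.72 and 0.53, and with the class as a term in the model 0.43, 0.48 and 0.28. With that term limma called 0 genes, and 2.81% of all genes had an unadjusted p below 0.05. That the term narrows these SEs follows from how the genes were chosen.

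Tumors of letter F and letter B mice, 3 of each, were compared because the letter runs with the class. Limma called 0 genes at an adjusted p of 0.05 (0%), with 1709 (8.57% of all genes) at an unadjusted p below 0.05. Among the 35 acinar genes 1 was below that p, among the 111 others 11 (9.91%) and among the 127 lower genes 21 (16.5%). S100g was 0.31 ± 0.18 (SE) log2 units higher in letter F tumors (adjusted p = 0.735 in limma), Pdx1 0.37, Enpp7 -0.06 and Osr2 -0.14. Without tumor replicate 3 limma called 3 genes, without replicate 1 it called 2 and without replicate 5 it called 1. With all 14 arrays it called 24, and with array weights 1601. A p that misses the threshold with 3 tumors against 3 does not show that the letters are alike.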

How the data were processed

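The deposited table holds log2 signal of 35556 transcript clusters on 14 arrays. Its processing named Affymetrix Expression Console 1.1 and genome build mm9, per the submitters' processing notes; the sources used here give neither background correction nor normalization. All 14 columns were mapped to samples. Values ran from 2.87 to 14.8, so differences near the top can be compressed, and the number of arrays limits the precision. Replicates of a group are separate mice.

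A single symbol was available for 21789 clusters, several for 1621 and none for 12146. Clusters with several or none were left out, and symbols were updated through gene identifiers of GRCm38.p6 for 21698 clusters, with 91 kept. For the 999 genes with several clusters the brightest was used. No filter on low values was applied.

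Classes were set by S100g at 11. Members, gene lists and tests were chosen with earlier results of these data known. The 45 lists held 808 entries, 74 of them absent from the table. Adjacent against wildtype used limma 3.58.1 in R 4.3.3 on all 14 arrays with mouse as random block (correlation 0.334), which pairs adjacent tissue and tumor of 5 mice; letter F against B used the 6 tumors. P-values were adjusted by Benjamini-Hochberg over 19938 genes. On simulated data 84% and 98% of genes changed by 1 and 2 log2 units were recovered for adjacent against wildtype (11 false calls), and 58% and 98% for letter (13 false calls). The simulated noise was normal and independent for each gene and array. It held neither the correlation within a mouse nor the S100g classes, so these rates may not hold for the real arrays. Alternatives were quantile normalization, centring, a filter on dim genes, the mean of clusters, other minimum differences, no block, array weights and leaving out each array. Python 3.11.15, pandas 2.3.3, scipy 1.17.1 and matplotlib 3.10.9 were used.

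Named genes were the 4 markers and Lrig1, the 12 higher and 12 lower genes with the largest difference outside the acinar lists, 10 acinar genes and up to 4 members of each list, and genes called by limma. Genes of antigen receptors, defensins, odorant and pheromone receptors and small RNAs, and predicted or unnamed genes, did not enter the sets ranked by difference. Others in the text, such as Dnase1, Ctrc, Cckar, Ptf1a, Akp3, Gata4, Heph and Hamp2, were chosen after their values were seen.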

Additional observations from a re-analysis of the deposited data

Results flagged for a closer look

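In 5 of 147 sets of 4 to 6 arrays the mean of a gene list had 1 array far from the rest; chance flags about 1 in 20 such sets. The tuft cell list averaged 8.55 in wildtype replicate 1, against 7.52 to 7.67 in the other S100g-high arrays. The water-soluble vitamin list averaged 10.76 in adjacent replicate 4, against 10.50 to 10.54 in the other S100g-low arrays. The cell cycle list averaged 9.38 in adjacent replicate 3, against 9.15 to 9.17 in the same class. In tumor replicate 3 the chief and parietal cell list averaged 8.78, against 7.15 to 7.74 in the other tumors, and the adipocyte list 8.64, against 7.72 to 7.82.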

How the results depend on the processing

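The count of 273 genes that did not overlap between the classes was 91 (69 higher, 22 lower) at a minimum of 2 log2 units and 2051 (534 and 1517) with no minimum; leaving out 1 array each gave 242 to 369. Quantile normalization, centring, the filter on dim genes and the mean of clusters gave 216 to 278. Adjacent against wildtype, at 0 genes called, gave 1 after quantile normalization, centring or the filter on dim genes, 1691 (310 higher, 1381 lower) with array weights, 0 to 1 without 1 array, and 0 without the block on mouse. Tumors of letter F against B, at 0, gave 24 (19 and 5) with all 14 arrays, 1601 (1111 and 490) with array weights and 0 to 3 without 1 tumor. The cause of these changes was not tested. The fit of the weights for letter F against B gave a convergence warning. The difference of S100g between adjacent and wildtype tissue was -0.97 after quantile normalization (exact permutation p = 0.929). List medians were recomputed after quantile normalization, after centring and without each of the 8 arrays. Of these values 448 moved by less than the spread between arrays and 2 by more. The 2 were villus tip and adenosine without wildtype replicate 1 (0.04 to -0.18) and enteric neuron and glia without adjacent replicate 4 (0.02 to -0.09). A move below that spread can still be large, as the 448 include the gastric pit change from 2.02 to 0.45 without wildtype replicate 1. No detection call accompanied the signal, so genes near the lowest signals may be background.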
